A study of Mus musculus with 72 samples.

Results

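The early growth response (EGR) transcription factors Egr1, Egr2, Egr3 and Egr4 and the NGFI-A-binding corepressors Nab1 and Nab2 were followed in mouse melanoma cell lines treated with gastrin-releasing peptide (GRP), with the antagonist RC-3095 (RC) of its receptor, or with both. The members were taken as the rows of the count table with these 6 gene symbols, and all 6 were found among 50600 genes. The question was how far the genes of this family respond to receptor stimulation, in which lines, and what the antagonist leaves of the response.

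RNA-seq had been carried out on 72 libraries, 3 replicates of each of 4 treatments in 6 lines. Lines 1057 and 1064 are female, carry Tyr::NRASQ61K/° on a Cdkn2a-/- background together with Tyr::CreA/° and Cdh1dF/dF, and are labelled GRPRpos. Line 1181 is male, carries Tyr::NRASQ61K/°, Cdkn2a-/- and Cdh1dF/dF with no Cre transgene (°/°), and was given either CMV::Grpr/tGFP (1181-Grpr, GRPRpos) or CMV::tGFP (1181-Ctrl, GRPRneg). Although its label shares Cdh1dF/dF with 1057 and 1064, the study describes 1181 as positive for E-cadherin, the product of Cdh1. Line 1014 is female, carries only Tyr::NRASQ61K/°, and was given the same vectors (1014-Grpr, GRPRpos; 1014-Ctrl, GRPRneg). All lines thus share the oncogenic NRAS transgene, driven by the tyrosinase promoter that is active in pigment cells. The vector lines were obtained by transfection and geneticin selection, and their receptor is driven by a viral promoter. After 18 h of starvation, cells in 0.5% serum received 0.1% DMSO (mock), 10 nM GRP, 1 µM RC or GRP and RC together (GRP+RC) for 4 h. The study's methods call its cell culture experiments at least biological triplicates, and the labels do not say what separates the 3 libraries of a group, so p-values measure the spread between these libraries.

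EGR factors are zinc finger proteins that bind GC-rich promoter sites. Their genes are classic immediate-early genes: growth factors and receptors that couple to Gq or to the ERK cascade switch them on through serum response factor with its ternary complex partners, and through CREB. NAB proteins bind EGR1, EGR2 and EGR3 and repress their targets, and Nab2 is itself an EGR target, so that the pair forms a feedback loop. In the mouse genome (GRCm38, GENCODE M21) Egr2 lies at chr10:67535475-67542188, Egr3 at chr14:70077203-70082614, Egr4 at chr6:85511121-85513589, Nab1 at chr1:52457294-52500679 and Nab2 at chr10:127660918-127668568. Nab2 overlaps Stat6, Nemp1 and Gm16229 on the opposite strand, and the strand setting of the counting is not given in the sources used here, so reads of the overlaps could have been shared.

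The upstream sequences of Egr2 and Egr4 are shown because letters typical of the signals that act on immediate-early genes could be searched in them. RefSeq promoter windows (GRCm38.p6) matched 4 of the 6 members, Egr2, Egr4, Nab1 and Nab2. The 250 bases before the start are given 5′ to 3′ on the gene's strand, at chr10:67537619-67537868 (plus strand) for Egr2 and at chr6:85513590-85513839 (minus strand) for Egr4. For Egr2, which has 5 windows, the one nearest the start of the principal GENCODE transcript was used, and it lies in an intron of longer Egr2 transcripts. Capitals mark a CArG box (the serum response factor motif) and the cyclic AMP response element core TGACG on either strand (CGTCA on the strand shown).
Egr2: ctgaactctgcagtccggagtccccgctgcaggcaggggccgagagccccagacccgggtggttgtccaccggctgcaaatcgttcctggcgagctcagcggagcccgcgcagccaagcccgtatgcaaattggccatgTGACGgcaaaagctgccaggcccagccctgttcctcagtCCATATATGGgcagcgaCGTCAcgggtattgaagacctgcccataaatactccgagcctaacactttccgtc
Egr4: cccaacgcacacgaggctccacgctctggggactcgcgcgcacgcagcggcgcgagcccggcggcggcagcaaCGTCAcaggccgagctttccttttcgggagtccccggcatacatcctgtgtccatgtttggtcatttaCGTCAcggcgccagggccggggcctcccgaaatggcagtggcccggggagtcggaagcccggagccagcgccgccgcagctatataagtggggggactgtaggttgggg
The Egr2 window held 1 CArG box, CCATATATGG, 72 to 63 bases before the start, and the core TGACG 2 times. The Egr4 window held the core 2 times and no CArG box, and neither window held the EGR letters GCGNGGGCG or the full element TGACGTCA. Among 32851 windows of the same length a CArG box was found in 1.47%, the core in 17.8%, the full element in 1.55% and the EGR letters in 4.7%. The Nab1 window held the EGR letters 3 times, as CGCCCACGC at chr1:52500581-52500589 (the motif on the opposite strand to the gene), GCGTGGGCG at chr1:52500549-52500557 and GCGGGGGCG at chr1:52500478-52500486, and the core 1 time. None of the 4 motifs was found in the Nab2 window. G and C made up 80.8% of the Nab1 window, 61.6% of that of Egr2, 68% of Egr4 and 72.8% of Nab2. The shares over all windows were not matched for this, and the EGR letters are almost all G and C. These matches describe letters only.

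Library totals ranged from 19512882 to 46862053 counted reads, with a median of 28112904.5. Levels below are CPM, counts scaled to library size by TMM over all 72 libraries, and 3 counts, taken as the floor, came to at most 0.16 CPM. The receptor gene Grpr was at 187 to 275 CPM in 1057, 472 to 1283 in 1064, 107 to 620 in 1014-Grpr and 8.48 to 79.9 in 11 of the 12 libraries of 1181-Grpr, against at most 0.0915 in 1181-Ctrl and 0.0332 in 11 of the 12 libraries of 1014-Ctrl. In those 2 lines 1 library each stood apart: replicate 2 of 1014-Ctrl mock held 48.1 CPM of Grpr and 64.2 CPM of the Y-linked gene Ddx3y, which was 0 in the other libraries of this female line, and replicate 2 of 1181-Grpr GRP+RC held neither Grpr nor Ddx3y and 793 CPM of Xist. Some results that rest on these 2 libraries are given with and without them. A result that does not say they were left out includes them. The other 11 libraries of 1181-Grpr, labelled male, held Xist at 193 to 248 CPM beside Ddx3y at 37.1 to 63.2 CPM, whereas Xist was at most 0.64 CPM in 1181-Ctrl; the part of this in the results was not tested. All 8 melanocyte lineage markers reached 1 CPM in every line, summing to between 5623 and 37730 CPM in a library. The fibroblast markers summed to at most 35.4 CPM, the immune markers to 51.8, the endothelial to 6.94 and the keratinocyte (with Cdh1) to 26.9.

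At rest, Nab1, Nab2, Egr1 and Egr3 were expressed in all lines, Egr2 was low and Egr4 was at or near 0. In bulk RNA, fewer expressing cells and less RNA per cell cannot be told apart, here and below. Compared per length (TPM, means of the 3 mock libraries), Nab1 was at 51.6 to 84.7, Nab2 at 41.9 to 76.8, Egr1 at 12.5 to 67.0, Egr3 at 13.1 to 58.1, Egr2 at 0.73 to 8.66 and Egr4 at 0 to 0.587 over the 6 lines. As a ratio of the highest to the lowest line mean, the corepressors spanned a narrower range than Egr1, Egr2 and Egr3. Egr3 stood above Egr1 at rest in 1057 and 1064. In 1057 the libraries did not overlap (24.8 to 29.6 TPM against 12.04 to 13.2). In 1064 the 3 mock libraries ran from 31.5 to 100.3 TPM for Egr3 and from 4.81 to 51.4 for Egr1. These ranges overlapped, but Egr3 was above Egr1 within each library.

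**Figure D1:**
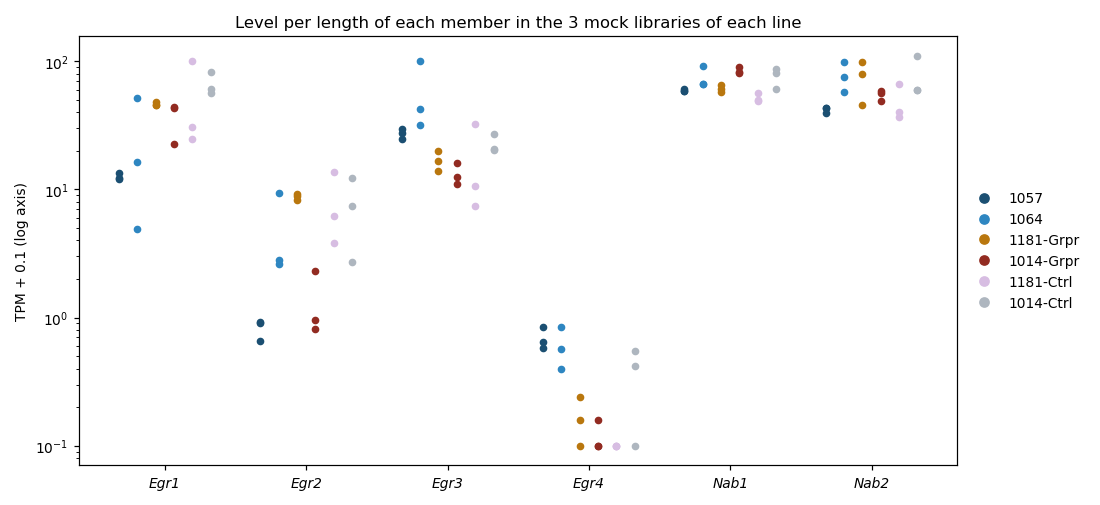
TPM of each member in the 3 mock libraries of each line (points; y axis, TPM plus 0.1 on a log axis; colours, lines). The points run from 48.7 to 92.0 TPM for Nab1 and from 36.7 to 110.4 for Nab2, and Egr4 lies lowest, at 0 in all 3 mock libraries of 1181-Ctrl.

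The 15 pairs of lines were compared on the 18 mock libraries, with the edgeR quasi-likelihood test. A call asked for an adjusted p (Benjamini-Hochberg, over all genes tested) under 0.05 together with an absolute log2 fold change over 1. Egr1, the broad early activator, was highest in 1014-Ctrl (81.7 ± 16.1 CPM, SD, n = 3), followed by 1181-Ctrl (59.5 ± 47.2), 1181-Grpr (55.4 ± 2.49), 1014-Grpr (44.5 ± 14.4), 1064 (36.4 ± 38.5) and 1057 (18.6 ± 0.921). No neighbours in this order were called apart, and 1057 was called lower than 1014-Ctrl, 1181-Ctrl and 1181-Grpr. These calls were lost without replicate 1 (adjusted p = 0.056, 0.435 and 0.138), and the last also without replicate 2 (0.0605) or 3 (0.0746). Without the library that stood apart the mean of 1014-Ctrl was 85.3 CPM and 1057 was again called lower (log2 difference -2.21 ± 0.695, adjusted p = 0.0134). Egr2, required for Schwann cell myelination and hindbrain patterning, had means of 7.87 ± 0.391 CPM in 1181-Grpr, 6.81 ± 4.41 in 1014-Ctrl, 6.77 ± 4.27 in 1181-Ctrl and 5.55 ± 4.75 in 1064, and was near 1 CPM in 1014-Grpr (1.15 ± 0.725) and 1057 (0.82 ± 0.153). The mean of 1064 rested on replicate 3 and was 2.815 CPM without it, and that of 1014-Ctrl was 4.59 CPM without the library that stood apart. The step from 1064 to 1014-Grpr was called (log2 difference 2.27 ± 0.661, SE, adjusted p = 0.00906), but not without replicate 3 (1.90 ± 0.675, adjusted p = 0.0539). Line 1057 was called lower than 1181-Grpr, 1181-Ctrl and 1014-Ctrl, also with any replicate left out and without the library that stood apart, and did not differ detectably from 1014-Grpr (adjusted p = 0.561). Lines differed widely over all genes. Of the 15358 genes tested, 1057 differed by a call in 25% from 1064, 31.8% from 1181-Grpr, 34.3% from 1014-Grpr, 35.6% from 1181-Ctrl and 32.1% from 1014-Ctrl. For 1064 the shares were 28.5% against 1181-Grpr, 28.9% against 1014-Grpr, 32.5% against 1181-Ctrl and 26.6% against 1014-Ctrl. Among the vector lines they were 14.2% (1181-Grpr against 1014-Grpr), 6.32% (1181-Grpr against 1181-Ctrl), 0% (1181-Grpr against 1014-Ctrl), 26.1% (1014-Grpr against 1181-Ctrl), 0.0846% (1014-Grpr against 1014-Ctrl) and 16.4% (1181-Ctrl against 1014-Ctrl). Without the library that stood apart the shares against 1014-Ctrl were 34% for 1057, 28.3% for 1064, 14.7% for 1181-Grpr, 0.228% for 1014-Grpr and 26.1% for 1181-Ctrl.

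Egr3, which acts in muscle spindle development and lymphocyte activation, was highest in 1064 (27.5 ± 19.1 CPM) and 1057 (12.8 ± 0.924) and lay between 5.09 and 8.72 CPM in the 4 vector lines. The leading pair was not called apart (log2 difference of 1057 against 1064 -1.10 ± 0.475, adjusted p = 0.0672), and 1064 was called higher than each vector line. None of these 4 calls remained without replicate 3 (adjusted p from 0.0595 to 0.272), when the mean of 1064 was 16.6 CPM. Line 1057 was called higher than 1014-Grpr (1.304 ± 0.483, adjusted p = 0.0309), but not without replicate 2 (0.113) or 3 (0.12). Nab1 ran from 54.7 ± 4.63 CPM in 1181-Ctrl to 99.98 ± 14.1 in 1064 with no pair called, and Nab2 from 36.4 ± 13.02 in 1181-Ctrl to 74.4 ± 23.1 in 1064 with that pair alone called (log2 difference 1.03 ± 0.317, adjusted p = 0.0115), a call that was lost without replicate 1 (0.0639) or 3 (0.269). Egr4 did not pass the filter on low counts in this comparison. It was above the floor in all mock libraries of 1057 (0.34 to 0.52 CPM) and 1064 (0.214 to 0.495). In 1014-Ctrl it was 0 in the library that stood apart and 0.19 and 0.259 CPM in the others, which were also above the floor and overlapped 1064. In the mock libraries of the other vector lines it was at most 0.0836 CPM. Comparisons that use 1014-Ctrl include the library that stood apart, in which Egr2 was 11.3 CPM against 2.43 and 6.74 in the other mock libraries, and Nab2 88.6 CPM against 48.4 and 47.3.

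GRP raised Egr3 in 1057, 1064 and 1014-Grpr. In the unpaired fit of all its libraries no member passed in 1181-Grpr, the line with the lowest Grpr level of the 4 labelled GRPRpos. Which other members passed varied from line to line. In the tests below "rose" and "fell" refer to the adjusted p alone and "called" adds the fold threshold. GRP against mock called 2 of 6 members higher in 1057 (Egr3 and Egr4), 1 of 6 in 1064 (Egr3) and 4 of 5 tested in 1014-Grpr (Egr1, Egr2, Egr3 and Nab2). Of all genes tested, 4.96%, 1.52% and 3.16% were called higher in these lines. No member was called in 1181-Grpr, 1181-Ctrl or 1014-Ctrl, nor was any other gene (0%) by edgeR. The unadjusted p was under 0.05 for 45 genes in 1181-Grpr, 37 in 1181-Ctrl and 562 in 1014-Ctrl, and DESeq2 called no member there either. Grpr itself had other levels under GRP than in mock in these 4 lines, with mock and GRP means of 274 and 204 CPM in 1057, 1006 and 499.6 in 1064, 11.7 and 46.2 in 1181-Grpr and 125 and 529.6 in 1014-Grpr; the part of this in the results was not tested.

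**Figure D2:**
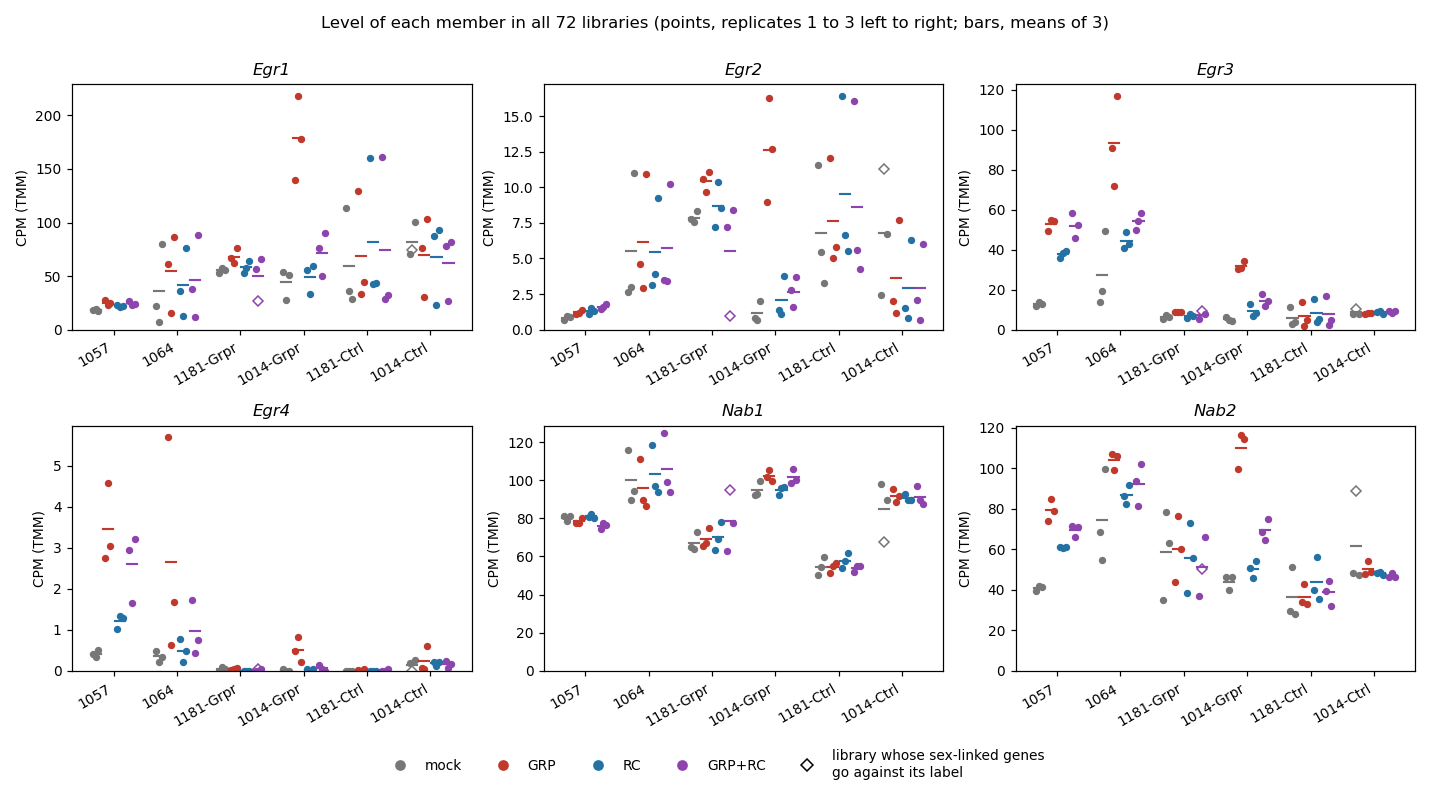
CPM of each member in every library (y axes, CPM scaled by TMM, from 0; points, libraries coloured by treatment; bars, means of 3; open diamonds, the 2 libraries that went against their labels). Egr3 under GRP separates from mock in 1057, 1064 and 1014-Grpr, Egr1 and Egr2 do so by far in 1014-Grpr, and Nab1 is level.

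Egr3 was the member called in 3 of the 4 GRPRpos lines. In 1057 the mock libraries were at 12, 13.8 and 12.6 CPM and the GRP libraries at 49.2, 54.7 and 54.4. The groups did not overlap (as for 25.2% of genes in this direction) and the log2 fold change was 2.07 ± 0.081 (SE, adjusted p = 2.42e-13). In 1064 mock was at 13.7, 19.6 and 49.3 CPM and GRP at 91.1, 72.1 and 117, with replicate 3 high in both. The groups again did not overlap (10.9% of genes) and the log2 fold change was 1.77 ± 0.382 (adjusted p = 0.0247). This call was lost without replicate 1 (adjusted p = 0.19) and without replicate 2 (0.231), the log2 fold change being 1.47 and 1.75. Those fits do not pair libraries by replicate number. Within replicate numbers the log2 differences were 2.69, 1.85 and 1.24. In 1014-Grpr mock was at 6.32, 4.84 and 4.10 CPM and GRP at 30.2, 31.1 and 34.5, without overlap (20.3% of genes) and with a log2 fold change of 2.65 ± 0.226 (adjusted p = 6.85e-06). In 1181-Grpr Egr3 was at 5.11, 7.56 and 6.31 CPM in mock and at 8.66, 8.65 and 8.85 under GRP; the groups did not overlap (1.33% of genes), as was the case for Egr1 and Egr2, but the log2 fold change of 0.47 ± 0.215 did not pass (unadjusted p = 0.0538, adjusted p = 1). With the replicate block and without the library that stood apart, Egr3 (0.49 ± 0.104, adjusted p = 0.0265) and Egr1 (0.30 ± 0.0466, 0.00176) rose in this line, both under the fold threshold. The share of all genes that rose in that fit is not given here, so these rises cannot be set against it.

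Egr4, the least expressed member and known mainly from neurons and germ cells, was called in 1057 alone. It went from 0.399, 0.34 and 0.52 CPM to 2.74, 4.58 and 3.05, a log2 fold change of 3.06 ± 0.303 (adjusted p = 9.97e-08). In 1064 mock was at 0.495, 0.214 and 0.347 CPM and GRP at 5.69, 0.62 and 1.67, with a log2 fold change of 2.89 ± 0.829 that missed the threshold (adjusted p = 0.0662). With the replicate number as a block, which pairs the libraries in this line, it was called beside Egr3 (2.78 ± 0.328, adjusted p = 0.000171, where 3.48% of genes were called higher). In 1014-Grpr it did not pass the filter on low counts: 1, 0 and 0 reads were counted in mock and 12, 25 and 10 under GRP, so mock was under the floor and every GRP library above it. In the fit of all 72 libraries, where it was tested, its adjusted p was 0.00225. In 1014-Ctrl, the vector control of that line, the GRP libraries held 1 to 18 reads (0.0366 to 0.597 CPM) and the mock libraries 0 to 7. The GRP libraries of the 1014 lines thus overlapped. In the 1181 lines no library held more than 2 reads of Egr4.

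Egr1 (chr18:34859823-34864984) rose little in 1057, from 18.4, 19.6 and 17.7 CPM to 27.4, 22.7 and 24.9 (log2 fold change 0.45 ± 0.0689, adjusted p = 2.15e-05). In 1014-Grpr it went from 54.2, 27.9 and 51.3 CPM to 140, 218 and 178, a log2 fold change of 2.03 ± 0.300 (adjusted p = 0.000389). In 1064 the level followed the replicate number, with 22.2, 7.05 and 80.02 CPM in mock and 61.0, 15.5 and 86.6 under GRP, so that the groups overlapped and the unpaired log2 fold change of 0.58 ± 0.975 did not pass (adjusted p = 0.795). Within replicate numbers the log2 differences were 1.44, 1.08 and 0.11, and the blocked fit gave 0.82 ± 0.200 (adjusted p = 0.00732, passed by 20.5% of genes in this direction), below the fold threshold.

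Egr2 was called higher in 1014-Grpr, rose below the fold threshold in 1057 and did not pass in 1064. In 1014-Grpr it went from 0.811, 0.662 and 1.98 CPM to 8.97, 16.3 and 12.7, a log2 fold change of 3.53 ± 0.497 (adjusted p = 0.000268). In 1057 it rose from 0.645, 0.928 and 0.888 CPM to 1.10, 1.15 and 1.38 (0.58 ± 0.213, adjusted p = 0.0283). In 1064 it was at 2.64, 2.99 and 11.03 CPM in mock and 4.61, 2.94 and 10.9 under GRP (0.15 ± 0.714, adjusted p = 0.936). Here too replicate 3 was high in both treatments. The blocked fit left it uncalled (adjusted p = 0.333).

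Of the corepressors, Nab2 rose and Nab1 was near level. Nab2 in 1057 went from 39.5, 42.1 and 41.3 CPM to 73.8, 84.9 and 78.8, a log2 fold change of 0.98 ± 0.0484 (adjusted p = 6.4e-12) just under the fold threshold. Thus 5 of 6 members rose in 1057, where 25.7% of all genes tested did. In 1064 and 1014-Grpr 3.62% and 16.3% of genes rose. In 1014-Grpr Nab2 went from 46.2, 39.7 and 46.1 CPM to 99.6, 117 and 114 (1.34 ± 0.0924, adjusted p = 1.77e-06). In 1064 it was at 68.5, 54.7 and 99.8 CPM in mock and 107, 99.4 and 106 under GRP (0.49 ± 0.179, adjusted p = 0.138), and passed with the block (0.51 ± 0.116, adjusted p = 0.00474). Nab1 stayed between 50.3 and 125 CPM over all 72 libraries, with log2 fold changes between -0.06 and 0.12 under GRP in the 6 lines, none with an adjusted p under 0.05. With the replicate block its change in 1014-Grpr passed (0.12 ± 0.0397, adjusted p = 0.0128). Of the genes that overlap Nab2, Stat6 fell by 0.17 (SE 0.0361, adjusted p = 0.000561) and Nemp1 by 0.20 (SE 0.0641, 0.0151) on the log2 scale in 1057. In 1014-Grpr Stat6 rose by 0.21 ± 0.0499 (adjusted p = 0.008) and Nemp1 gave -0.12 ± 0.0890 (0.358). Gm16229 reached 0.537 CPM in the mean of the 1014-Grpr GRP libraries, beside 110.2 CPM of Nab2.

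In the 3 remaining lines the members' log2 fold changes under GRP lay between 0.04 and 0.47 in 1181-Grpr, between -0.02 and 0.20 in 1181-Ctrl and between -0.91 and 0.11 in 1014-Ctrl, with no adjusted p under 0.05. Without the library that stood apart, the values in 1014-Ctrl lay between -0.32 (Egr2) and 0.08 (Nab2), again with no adjusted p under 0.05. In 1014-Ctrl Egr1 in replicate 2 was 30.2 CPM under GRP, 23.4 under RC and 27.0 under GRP+RC, below the other replicates (76.6 to 104 CPM), whereas the mock library of the same number was at 74.6. In 1181-Ctrl it was replicate 1 that was high under every treatment (114 to 161 CPM of Egr1 against 28.4 to 44.1 in the others).

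The GRP effect itself was compared between lines on 24 libraries a pair. It was larger in 1014-Grpr than in its vector control for Egr1 (log2 difference 2.24 ± 0.676, adjusted p = 0.032), Egr2 (4.41 ± 1.17, 0.0155), Egr3 (2.76 ± 0.277, 1.61e-06) and Nab2 (1.63 ± 0.229, 7.76e-05), where 3.01% of genes were called in this direction. Without the library that stood apart the values were 2.31 ± 0.702 (adjusted p = 0.0279), 3.87 ± 1.15 (0.0243), 2.61 ± 0.269 (1.51e-06) and 1.27 ± 0.118 (4.34e-07), and Egr4 was called as well (adjusted p = 0.0373, against 0.091 with it), where 2.33% of genes were called. Egr4 reached 0.82 CPM under GRP in 1014-Grpr and 0.597 in 1014-Ctrl, and at most 0.259 under the other treatments of these lines. It thus passed the filter on low counts only through libraries under GRP, and its call is a description and not a test. The Egr1 call was lost without replicate 1 (adjusted p = 0.156) or 3 (0.138), and the Egr2 call without replicate 1 (0.139) or 2 (0.145). Between 1057 and 1014-Grpr the effect was smaller in 1057 for Egr1 (-1.59 ± 0.326, adjusted p = 0.00131) and Egr2 (-2.97 ± 0.606, 0.00119), where 1.36% of genes were called lower. For Egr3 the difference was -0.60 ± 0.233 (adjusted p = 0.0931), and for Egr4, whose 1014-Grpr mock libraries were under the floor, the adjusted p was 0.367, so that neither was shown to differ between these lines. The Egr3 difference ranged in adjusted p from 0.00737 to 0.555 when 1 replicate was left out. That of Nab2 passed without reaching the fold threshold (-0.38 ± 0.106, adjusted p = 0.0165). No member was called between 1057 and 1064 (0.451% of genes), between 1181-Grpr and 1181-Ctrl (0%), or between 1064 and 1014-Grpr (0.107% lower in 1064). In the last pair Egr1 (-1.27 ± 0.348, adjusted p = 0.0198) and Egr2 (-3.32 ± 0.437, 6.33e-05) were called lower in 1064 with the replicate block, where 1.3% of genes were, and Nab2 passed below the fold threshold (-0.79 ± 0.142, adjusted p = 0.00102).

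**Figure D3:**
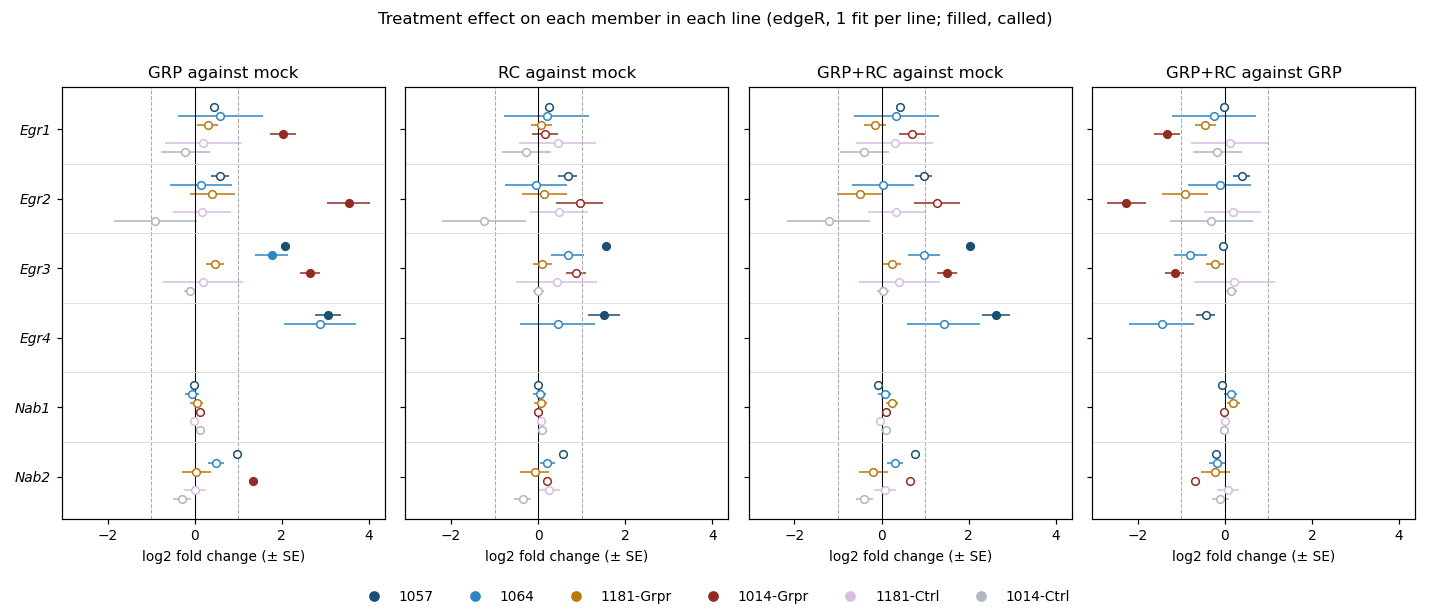
Log2 fold change of each member with its SE in the 6 lines for the 4 treatment comparisons (x axes, log2 fold change; rows, members; colours, lines; filled points, called; dashed lines at -1 and 1). In the panel of GRP against mock the filled points are Egr3 in 3 lines, Egr4 in 1057, and Egr1, Egr2 and Nab2 in 1014-Grpr; RC alone gives filled points in 1057 for Egr3 and Egr4.

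RC given alone raised 5 of 6 members in 1057, where 13% of genes rose. Egr3 stood at 35.7, 38.2 and 39.2 CPM under RC, above all mock libraries (18.9% of genes), with a log2 fold change of 1.55 ± 0.0833 (adjusted p = 3.67e-10). Egr4 stood at 1.01, 1.35 and 1.29 CPM (1.51 ± 0.369, adjusted p = 0.00561). Only these 2 members were called, where 0.81% of genes were called higher. Nab2 rose to 61.0, 60.9 and 60.9 CPM (0.57 ± 0.0492, adjusted p = 1.48e-07), Egr2 by 0.68 ± 0.210 (adjusted p = 0.025) and Egr1 by 0.24 ± 0.0699 (adjusted p = 0.016). The rise of group means under RC alone came to 62.3% of that under GRP for Egr3, 54.3% for Egr1, 52.3% for Nab2 and 26.2% for Egr4, and to 128% for Egr2, whose mean was higher under RC (1.32 CPM) than under GRP (1.21). In a fit of all 72 libraries with 1 shared spread no member was called for RC in 1057. In the other lines RC called no member and no other gene (0%) by edgeR, and DESeq2 called no member. The unadjusted p was under 0.05 for 129 genes of 1064, 161 genes of 1014-Grpr, 33 genes of 1181-Grpr, 39 genes of 1181-Ctrl and 694 genes of 1014-Ctrl. In 1014-Grpr Egr3 was at 12.9, 7.07 and 8.28 CPM under RC, above its mock libraries (as were 2.05% of genes), with a log2 fold change of 0.87 ± 0.231 (adjusted p = 1, or 0.0837 with the block).

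With GRP and RC together, the members that rose under GRP lay nearer mock in 1014-Grpr and nearer GRP in 1057. In 1057 RC alone raised these members too. GRP+RC was not compared with RC alone, so the part of GRP in the GRP+RC levels there was not tested. GRP+RC was compared with GRP and with mock, comparisons that share libraries with those above, and the effect of RC was not tested between lines. In 1014-Grpr, Egr1 was at 76.0, 49.7 and 90.0 CPM under GRP+RC, below every GRP library (log2 fold change against GRP -1.33 ± 0.293, adjusted p = 0.0115). Egr2 was at 2.77, 1.56 and 3.68 CPM (-2.26 ± 0.453, 0.00679) and Egr3 at 17.6, 11.7 and 14.1 CPM (-1.16 ± 0.209, 0.00362). These 3 of 5 members were called lower where 1.59% of genes were. Nab2, at 68.6, 64.5 and 74.8 CPM, fell by 0.69 on the log2 scale (SE 0.091, adjusted p = 0.000491), short of the fold threshold, where 8.06% of genes fell. All 4 genes were below every GRP library, as were 14.9% of genes.

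**Figure D4:**
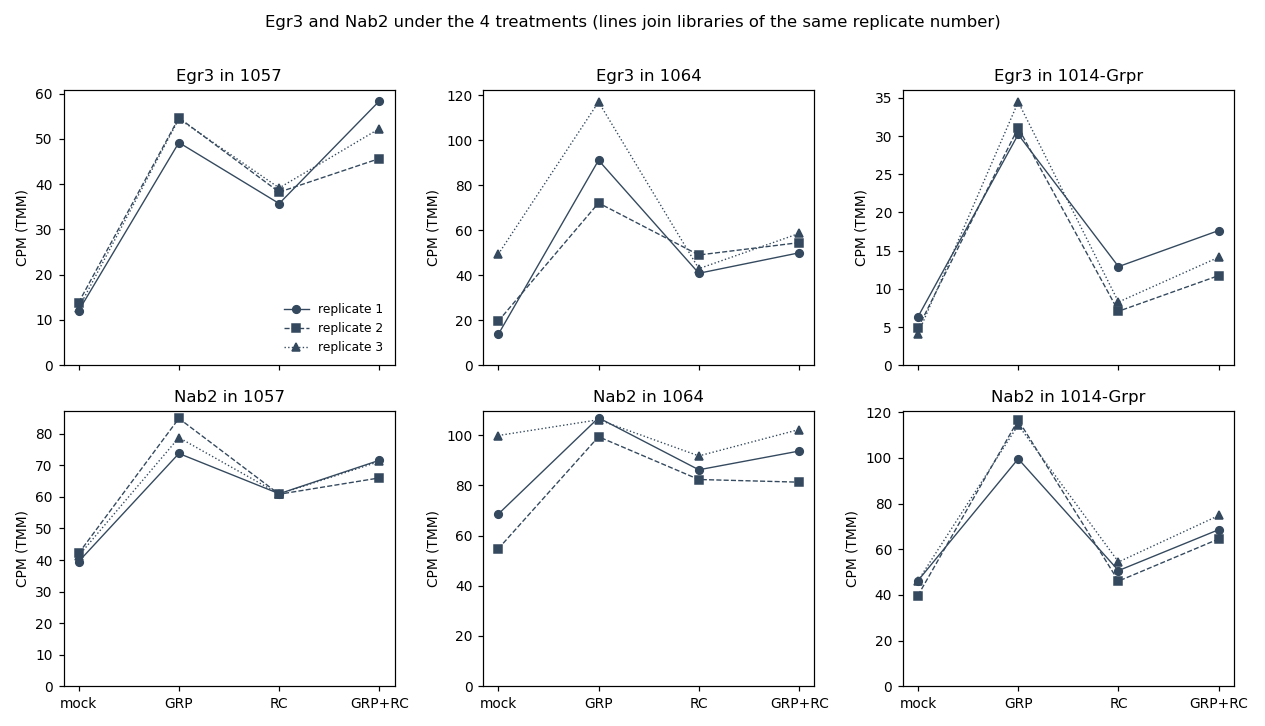
CPM of Egr3 (top) and Nab2 (bottom) under the 4 treatments in 1057, 1064 and 1014-Grpr (y axes from 0; each line joins the libraries of 1 replicate number). In 1057 Egr3 under GRP+RC (45.7 to 58.4 CPM) overlaps GRP (49.2 to 54.7), while in 1014-Grpr it (11.7 to 17.6) lies between mock and GRP.

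The calls in 1014-Grpr rested on all 3 replicates. Without replicate 1 only Egr3 was called, without replicate 3 only Egr2 and without replicate 2 none, and none was called in the fit of all 72 libraries. Of the rise of the group means under GRP, 35.1% was left under GRP+RC for Egr3, 38.2% for Nab2, 20.4% for Egr1 and 13.2% for Egr2. Against mock, Egr3 was still called higher (1.498 ± 0.228, adjusted p = 0.015, where 0.153% of genes were) and Nab2 rose by 0.65 ± 0.0922 (adjusted p = 0.0105, where 0.765% of genes rose). The Egr3 call was lost when any replicate was left out (adjusted p from 0.053 to 0.179). With the replicate block, which pairs the libraries of this line, Egr2 was called too (1.27 ± 0.407, adjusted p = 0.0369, where 0.517% of genes were called higher) and Egr1 rose (0.70 ± 0.206, adjusted p = 0.0257).

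In 1057, Egr3 was at 58.4, 45.7 and 52.3 CPM under GRP+RC and overlapped GRP (log2 fold change -0.04 ± 0.0694, adjusted p = 0.759), with 98.4% of the rise of the mean left. Its mean was 12.8 CPM in mock, 37.7 under RC alone, 52.8 under GRP and 52.1 under GRP+RC. The shares left in this line thus include any rise from RC itself. Egr4 was at 2.95, 1.65 and 3.22 CPM (-0.44 ± 0.216, adjusted p = 0.159), with 71.9% left. Egr1 overlapped GRP (-0.03 ± 0.0669, adjusted p = 0.793, 95.9% left). Egr2 was at 1.43, 1.58 and 1.81 CPM, above every GRP library, with 203% of the rise and a difference that did not pass (0.38 ± 0.189, adjusted p = 0.16). Nab2 was at 71.6, 66.0 and 71.3 CPM, below every GRP library (as 16.8% of genes were), and fell by 0.21 on the log2 scale (SE 0.0465, adjusted p = 0.00284, where 13.7% of genes fell), with 75% left. No member was called against GRP, where 0.754% of genes were called lower. Against mock, Egr3 (2.03 ± 0.081, adjusted p = 8.52e-13) and Egr4 (2.62 ± 0.318, 2.28e-06) were called higher where 3.02% of genes were, and Egr1 (0.42 ± 0.0688, 6.84e-05), Egr2 (0.97 ± 0.202, 0.000715) and Nab2 (0.77 ± 0.0487, 4.5e-10) rose, as 21.3% of genes did.

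In 1064, Egr3 was at 49.97, 54.5 and 58.6 CPM under GRP+RC, below every GRP library (as 6.66% of genes were) and above every mock library (2.97%), yet neither comparison passed (log2 fold change against GRP -0.79 ± 0.372, adjusted p = 0.525; against mock 0.97 ± 0.376, adjusted p = 1). The share of the rise of the mean left was 40.7%. No member was called against GRP, where 0.0145% of genes were called lower, or against mock, where 0% were called higher. With the replicate block Egr4 was called lower than under GRP (-1.34 ± 0.271, adjusted p = 0.00811, where 1.28% of genes were called lower), at 1.72, 0.447 and 0.76 CPM. In 1181-Grpr, 1181-Ctrl and 1014-Ctrl no member was called for GRP+RC against mock or GRP, with or without the 2 libraries, and no gene was called with them (0%). In 1181-Grpr the library that stood apart held 27.0 CPM of Egr1 and 0.951 CPM of Egr2 against 56.2 and 65.9, and 7.22 and 8.37, in the other GRP+RC libraries.

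The members' profiles were compared over the 24 means of line and treatment, on log2 CPM centred within each line, so that only treatment differences count. Pearson's r was 0.93 between Egr3 and Nab2, 0.924 between Egr1 and Egr2, 0.916 between Egr1 and Nab2 and 0.858 between Egr3 and Egr4, whereas Nab1 gave -0.16 to 0.107 with the others. The means share libraries and scaling, and these values are descriptions. Among 12509 genes with a mean of at least 1 CPM the profile most like that of Egr1 was Atf3 (r = 0.9755), a stress- and mitogen-induced factor, followed by Snhg17 and Alkbh1. For Egr2 these were Ppfia1 (0.9516), Rusc2 and Ivns1abp, for Egr3 Mllt11 (0.9655), Slc35b3 and Ube2g2, for Egr4 Xbp1 (0.9778), Rock2 and Cfap43, for Nab2 Rrp1b (0.9752), Eif3d and Psmd8, and for Nab1 Mtap (0.8611), Klhl30 and Agbl2. Without the 2 libraries none of the 3 genes was shared for Egr1, Egr2 or Egr3, 2 were for Egr4 and 1 each for Nab1 and Nab2, so the order among many similar profiles was not stable.

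Genes around the family were taken from lists of its inputs, cofactors and described targets, chosen with earlier results of these data known. Of the 26 described EGR target genes, 20 were tested in 1057, 17 in 1064 and 19 in 1014-Grpr, and GRP called 3, 3 and 5 of them higher and none lower, against 4.96%, 1.52% and 3.16% of all genes called higher. The 3 in 1064 became 5 with DESeq2, 5 with the replicate block (3.48% of genes), 5 without replicate 3 and 0 without replicate 1 or 2. Their median log2 fold change was 0.303 in 1057, 0.755 in 1064 and 0.754 in 1014-Grpr, beside -0.011, -0.025 and -0.016 over all genes tested. In 1181-Grpr, 1181-Ctrl and 1014-Ctrl none was called and the medians were 0.016, -0.018 and 0.048. Ptgs2 in 1057 and 1014-Grpr, and Pdgfb and Plau in 1014-Grpr, passed the filter on low counts only through their GRP libraries. The counts and medians of this list are thus descriptions and not a test of it. The lines meant next are 1057, 1064 and 1014-Grpr. Pdgfa, a growth factor chain, was called in all 3 lines: it went from 10.8, 11.2 and 11.3 CPM to 37.7, 42.1 and 41.1 in 1057 (1.88 ± 0.0547, adjusted p = 3.62e-15), and rose by 1.401 ± 0.238 in 1064 (0.0112) and by 2.26 ± 0.229 in 1014-Grpr (2.43e-05). Plau, the urokinase plasminogen activator, was called in the same lines but at levels far apart, from 42.8 ± 3.05 to 103 ± 8.42 CPM in 1057 (1.29 ± 0.0594, 2.35e-12), from 0.171 ± 0.174 to 2.61 ± 0.663 in 1064 (adjusted p = 0.00894) and from 0.227 ± 0.0656 to 1.10 ± 0.0926 in 1014-Grpr (adjusted p = 0.0122).

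Cdkn1a, the p21 cell cycle inhibitor, was called in 1014-Grpr alone, from 112, 77.9 and 84.3 CPM to 403, 448 and 460.1 (2.27 ± 0.144, adjusted p = 1.02e-06). It lay just under the fold threshold in 1064 (0.998 ± 0.188, 0.0153) and rose by 0.72 ± 0.0372 in 1057 (1.22e-11). Ptgs2, the inducible cyclooxygenase, was near the floor in mock and reached 0.685, 0.827 and 0.707 CPM under GRP in 1057 (adjusted p = 9.17e-06) and 0.638, 2.03 and 1.04 CPM in 1014-Grpr (0.00081). Pdgfb was called in 1014-Grpr (0.677, 1.51 and 1.02 CPM under GRP, at most 0.12 in mock, adjusted p = 0.000848). F3, tissue factor, was called in 1064 alone (1.28 ± 0.276, adjusted p = 0.0242). Its mean also went up in 1014-Grpr, from 19.5 to 34.4 CPM, but down in 1057, from 17.3 to 14.6 CPM. The block also called Vegfa, an angiogenic growth factor (76.2, 119 and 167 CPM in mock, 187, 258 and 278 under GRP, 1.04 ± 0.104, adjusted p = 9.33e-05), and Fn1, fibronectin (365, 196 and 432 CPM in mock, 956, 501.5 and 632 under GRP, 1.11 ± 0.135, 0.000195), in 1064. F3, Vegfa and Fn1 were not among the 5 target genes that the naming rule takes and were named after their values were seen.

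Of the 13 input genes, Srf, the serum response factor, was called in 1064 (74.4, 46.9 and 69.5 CPM in mock, 326, 168 and 145 under GRP, 1.75 ± 0.387, adjusted p = 0.0268) and in 1014-Grpr (65.5, 54.2 and 59.5 to 164, 177 and 136, 1.43 ± 0.106, 2.45e-06). In 1057 it rose by 0.16 ± 0.0375 (adjusted p = 0.00143). No other input gene, none of the 16 cofactors (the NuRD complex and others that act with EGR and NAB proteins), none of the tested EGR2-dependent myelin genes (3 to 5 of 8) and none of the 3 tested of 4 GC-box relatives was called in any line with all libraries and no block. With the block the myelin gene Gjb1, a gap junction protein, was called in 1064 (2.19, 3.79 and 5.45 CPM in mock, 3.88, 6.76 and 12.9 under GRP, 1.01 ± 0.158, adjusted p = 0.000631). Mal, another myelin gene, was called lower in 1057 without replicate 3 (-1.07 ± 0.147, adjusted p = 4.27e-05, against -0.93 ± 0.129 with all libraries). Both were named after their values were seen. The calls in 1064 again depended on the replicates: 4 list genes were called with all libraries, none without replicate 1 or 2, and 5 without replicate 3, when Srf was no longer called (adjusted p = 0.0824).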

How the data were processed

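Poly(A)-selected RNA was sequenced as stranded paired-end libraries in 72 samples. The deposited counts are whole-number reads per gene, which the authors obtained with STAR on mm10 (submitters' processing notes: FastQC 0.11.5, STAR, GRCm38.p5). The strand setting of the counting is not given in the sources used here. The authors also deposited TPM, counts scaled by gene length and library size. In the columns of 1057 its decimal mark is a comma, which was read as a point. TPM was used only to compare genes with each other and in 1 alternative (limma on log2 TPM with a pseudocount of 0.1).

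Gene IDs were named with GENCODE M21 (50376 of 50600, 99.6%). Counts were tested with edgeR 4.0.16 (R 4.3.3, limma 3.58.1): filterByExpr, TMM, quasi-likelihood test, Benjamini-Hochberg adjustment over all genes passing the filter. Each line was fitted alone (12 libraries, 13730 to 14506 genes), pairs of lines together for differences of the GRP effect, and the mock libraries together. DESeq2 1.42.0, other filters, scalings, fits and left-out libraries were alternatives. The SE of a log2 fold change is its size over the square root of F. The test scripts were tested on simulated data. Figures used Python 3.11.15 and matplotlib 3.10.9.

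The members and gene lists were chosen with earlier results of these data known. Named list genes are those called for GRP against mock in at least 1 line, up to 5 a list by mean absolute log2 fold change. Profile likeness is Pearson's r of log2 CPM (pseudocount 0.5) over 24 means, over genes with a mean of at least 1 CPM, the 3 highest named. Replicate pairs of a group all differed by more than sampling noise (lowest chi-square per degree of freedom 2.56 over 72 pairs). Labels share replicate numbers across treatments without saying what a number marks. Deviations of same-numbered libraries correlated over 0.1 in every pair in 1064 (lowest r 0.642), 1014-Grpr (0.462) and 1181-Ctrl (0.829), and in 1181-Grpr for GRP and RC against mock (lowest 0.617). In 1057 they did not (lowest -0.216), and in 1014-Ctrl they did only for GRP+RC against GRP (lowest 0.474). The comparisons of 1014-Ctrl with mock and of 1181-Grpr with GRP+RC include the libraries that stood apart, and the part of these in the lack of pairing was not tested. Blocked values are given where they change a call of a member or list gene. The SEs rest on the spread between replicates; depth (19512882 to 46862053 reads a library) limits genes of low count, and the floor of 3 counts covers counting error only.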

Additional observations from a re-analysis of the deposited data

Results flagged for a closer look

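For 6 values the GRP effect itself differed between lines in the test of that difference (edgeR, adjusted p under 0.05 and an absolute log2 difference over 1). In 1014-Grpr against 1014-Ctrl the log2 difference was 2.24 for Egr1, 4.41 for Egr2, 2.76 for Egr3 and 1.63 for Nab2. In 1057 against 1014-Grpr it was -1.59 for Egr1 and -2.97 for Egr2. Of these, Egr3 and Nab2 in the 1014 pair and both values of the second pair were called whichever replicate was left out. In the first pair Grpr differed by design, and 1 mock library of 1014-Ctrl went against its label. In the second pair the lines also differed in genotype. Neither gene was called apart between their mock libraries (adjusted p = 0.0962 for Egr1 and 0.561 for Egr2), whereas Egr3 was (0.0309). The part of these in the values was not tested. Groups of 3 libraries were not searched for outlying values.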

How the results depend on the processing

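Each comparison was rerun under the alternatives set for it: upper-quartile scaling, TPM and the fit of all 72 libraries for treatments within lines only, the block for these, the differences of the GRP effect and the lists, and for the lists otherwise DESeq2 and left-out replicates. In all, 354 counts of called genes stayed within 1.5 times the count reported and 56 did not. In the exceptions the cause was not tested, unless the alternative drops libraries or the fold threshold. With the adjusted p alone, GRP passed 5 members in 1057 (2 with the fold threshold), RC 5 (2), GRP+RC against mock 5 (2) and GRP+RC against GRP 1 (0), and 2 in 1014-Grpr for GRP+RC against mock (1). With 1 fit of all 72 libraries, members called were 2 for GRP in 1064 (1), 0 for RC in 1057 (2), and in 1014-Grpr 0 for GRP+RC against GRP (3) and 0 against mock (1). DESeq2 called 2 for GRP in 1064 (1), 1 for the difference between 1064 and 1014-Grpr (0), and in mock 1 between 1014-Grpr and 1014-Ctrl (0) and 2 between 1057 and 1064 (1). With the replicate block, members called were 2 for GRP in 1064 (1), 1 there for GRP+RC against GRP (0), 2 in 1014-Grpr for GRP+RC against mock (1) and 2 for the difference between 1064 and 1014-Grpr (0), and 7 list genes in 1064 (4). It also called Egr4 for the difference between 1014-Grpr and 1014-Ctrl (adjusted p = 0.0229), where Egr4 passed the filter on low counts only through libraries under GRP. The numbers did not pair GRP with mock in 1014-Ctrl, whose mock includes the library that stood apart. The block passed, below the fold threshold, the differences of Egr3 (0.0112) and Nab1 (0.0321) between 1057 and 1014-Grpr and of Nab2 between 1057 and 1064 (0.0243). In these pairs the numbers do not pair the libraries of 1057. Beside these and the blocked values given with the results, the block with all libraries changed no call of a member. With no filter, 2 were called in 1014-Grpr for GRP+RC against mock (1), and in mock 2 between 1057 and 1014-Grpr (1), 2 between 1064 and 1181-Grpr (1) and 1 between 1181-Ctrl and 1014-Ctrl (0). Without the 2 libraries the same 3 mock pairs gave 2, 2 and 1, and 1181-Grpr against 1014-Ctrl gave 1 (0). In the treatment comparisons, upper-quartile scaling and TPM with limma changed no count of called members by more than 1.5 times.

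Leaving out 1 replicate number at a time, members called ranged from 2 to 3 for the difference between 1014-Grpr and 1014-Ctrl (4 with all), 0 to 1 for 1064 against 1014-Grpr (0), 0 to 1 for GRP in 1064 (1), 0 to 1 for GRP+RC against GRP in 1014-Grpr (3), and were 0 there against mock (1). Called list genes in 1064 ranged from 0 to 5 (4). In mock the ranges were 0 to 1 between 1014-Grpr and 1181-Ctrl (1), 1 to 2 between 1057 and 1014-Ctrl (2), 0 to 1 between 1057 and 1014-Grpr (1), 0 to 2 between 1057 and 1064 (1), 1 to 2 between 1057 and 1181-Grpr (2), 0 to 3 between 1064 and 1014-Grpr (2), 1 to 3 between 1064 and 1181-Ctrl (2), 1 to 2 between 1064 and 1181-Grpr (1), 0 to 1 between 1181-Ctrl and 1014-Ctrl (0), 0 to 1 between 1181-Grpr and 1014-Ctrl (0), and 0 between 1181-Grpr and 1014-Grpr (1).

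Signs turned only for values that were not called. On the log2 scale, Nab1 gave -0.039 (RC in 1057) and -0.0046 (RC in 1014-Grpr) with TPM, and for GRP+RC against GRP in 1014-Grpr 0.0298 with upper-quartile scaling and 0.0472 with TPM. Egr2 under RC in 1064 gave 0.0489 with the replicate block and 0.0924 with TPM. For GRP in 1014-Ctrl without the library that stood apart, Nab1 gave -0.0235, Nab2 0.078 and Egr3 0.0534, and with the block added Nab1 -0.0079, Nab2 0.0463, Egr3 0.0469, Egr2 0.0855 and Egr1 0.114. The Nab1 difference between 1014-Grpr and 1014-Ctrl was -0.001 with no filter. With 1 replicate left out, signs turned within these ranges: in 1057 Nab1 under RC (-0.0209 to 0.0301), and Egr4 (-0.6964 to 0.0709) and Egr3 (-0.1665 to 0.0816) for GRP+RC against GRP; in 1064 Egr2 under GRP (-0.0034 to 0.4282), RC (-0.1383 to 0.3097) and GRP+RC against mock (-0.0507 to 0.2811). Under GRP this held for Nab2 in 1181-Grpr (-0.0476 to 0.0925), Nab1 (-0.0321 to 0.0232) and Nab2 (-0.0727 to 0.2068) in 1181-Ctrl, and in 1014-Ctrl Nab1 (-0.0019 to 0.1896), Egr2 (-2.1105 to 0.0904), Nab2 (-0.4281 to 0.0171), Egr3 (-0.1984 to 0.0323) and Egr1 (-0.4398 to 0.0823). It held for Nab1 under RC in 1014-Grpr (-0.0159 to 0.0335). Among differences of the GRP effect it held for Nab2 in the 1181 pair (-0.119 to 0.1563), Nab1 in the 1014 pair (-0.0883 to 0.0744), and between 1057 and 1064 for Egr4 (-0.4609 to 1.1174), Egr3 (-0.2696 to 0.5759) and Egr1 (-0.9584 to 0.1079). Depth limits Egr4 most: outside 1057 and 1064 most libraries held no more than the floor of 3 counts. With Spearman's rho in place of Pearson's r, the genes named for likeness were shared in 1 of 3 for Egr1 and Egr2, 3 of 3 for Nab1 and 0 of 3 for Egr3, Egr4 and Nab2.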
